A study of Mus musculus with 11 samples.

Results

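The loci of Vil1 and Cdh17 were followed across chromatin immunoprecipitation sequencing (ChIP-seq) lists from villus epithelium of the mouse jejunum. Members were all called peaks and H3K4me2 nucleosomes that lay wholly inside mm9 chr1:74430000-74500000 around Vil1 or mm9 chr4:11660000-11770000 around Cdh17. Nucleosomes needed a score of 52 or more. These windows held 664 of the 1367761 peaks and nucleosomes in 10 lists. The Vil1 window had 42 factor peaks and 369 nucleosomes, and the Cdh17 window had 14 factor peaks and 239 nucleosomes. Positions chose the members, and no measured level was used except the score minimum for nucleosomes.

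The transcription factor CDX2 was mapped in wild type (2 libraries) and in Hnf4a knockout villi (1 library). For HNF4A the genotypes were wild type and Cdx2 knockout (1 library each). H3K4me2, the dimethylation of histone H3 at lysine 4 that marks active promoters and enhancers, was mapped in wild type, Cdx2 knockout, Hnf4a knockout and 2 double knockouts (1 library each). All 10 libraries carried the strain label 129xC57BL6 mixed background and came from pooled ChIP DNA, with villi held on a 70 µm filter after release with 15 mM EDTA. The labels describe villi fixed in 1% formaldehyde and unfixed villi cut with micrococcal nuclease, without saying which libraries had which. The labels give neither the driver or timing of the deletions nor the age of the mice. For the double knockout titled Cdx2-Cdx1 other labels name Hnf4a, and for the one titled Cdx2-Hnf4a the description names Cdx1. Both have Cdx2 deleted under every label, and they are named by title below. No transcripts were measured, so neither the villus label nor the deletions were checked against expression. Each library is bulk chromatin, so fewer cells with a mark and less of the mark per cell cannot be told apart.

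Vil1 encodes villin, an actin-bundling and actin-severing protein in the core of the brush border microvilli, and its promoter is widely used to drive transgenes in intestinal epithelium. Cdh17 encodes LI-cadherin, a calcium-dependent adhesion protein on the lateral membrane of intestinal epithelial cells. CDX2 is a homeodomain factor that sets intestinal identity, and HNF4A is a nuclear receptor that activates enterocyte genes. Both genes are known as intestinal targets of CDX2. In mm9 Vil1 lies near 74.456 to 74.482 Mb on chromosome 1 and Cdh17 near 11.685 to 11.745 Mb on chromosome 4. These ends are approximate and are called the gene span here. In a RefSeq table of another build (GRCm38.p6), the coding genes before Vil1 are Slc11a1 and Ctdsp1 and the one after it is Usp37, whose entry overlaps that of Vil1. Vil1 is on the plus strand there, so the lower end of its span is its start. Cdh17 lies between Gem and Pdp1 in that table. Its strand was not available, so the start of its span means only the lower end.

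**Figure D1:**
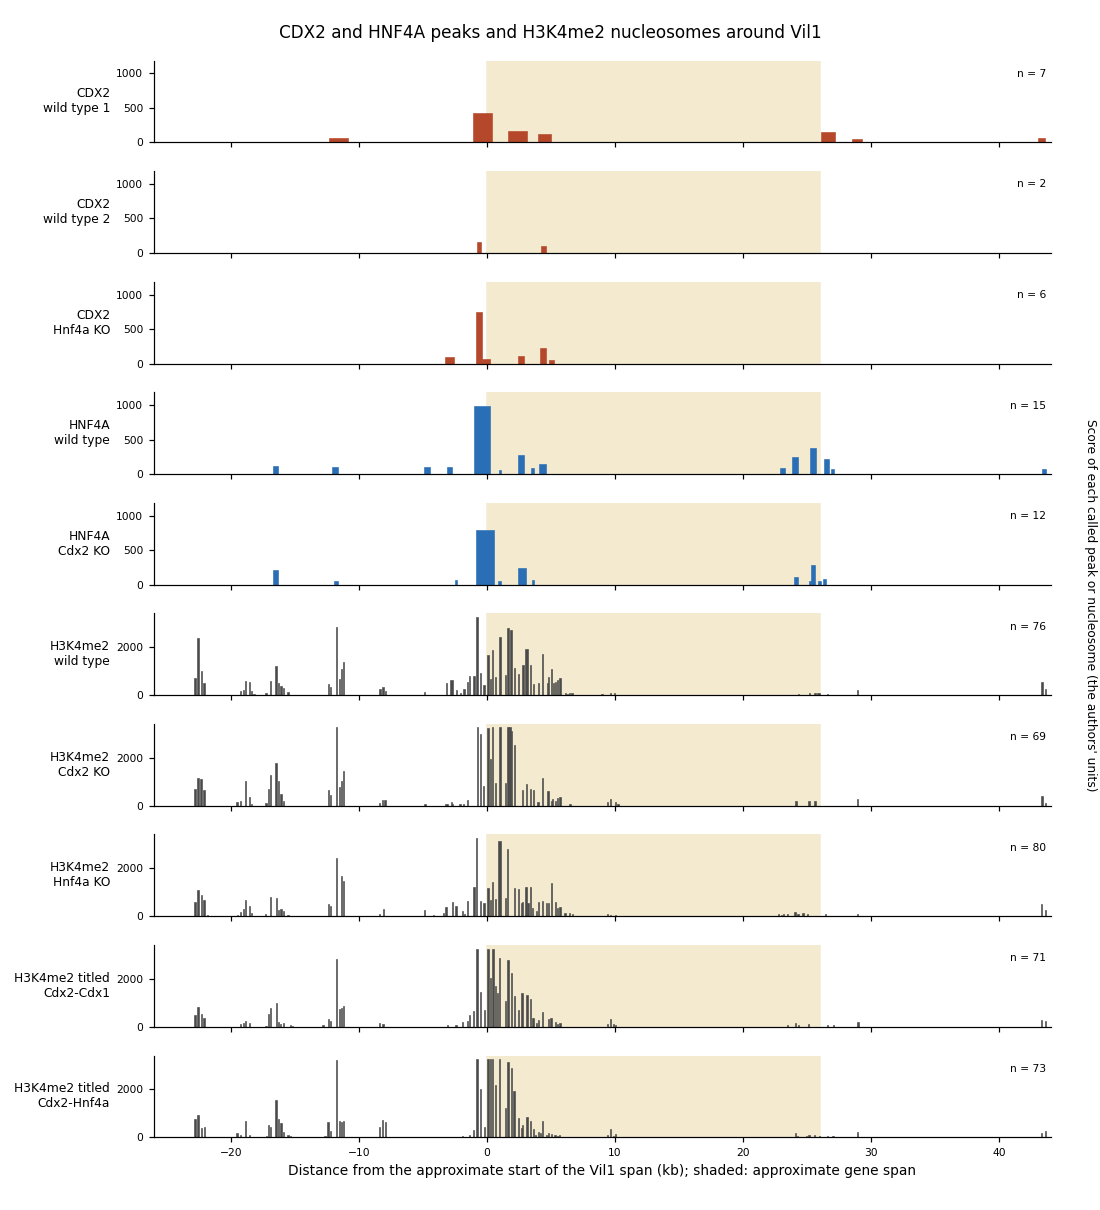
Called CDX2 (red) and HNF4A (blue) peaks and H3K4me2 nucleosomes (grey) in the Vil1 window. The x axis is the distance from the approximate start of the gene span in kb, bar height is the authors' score in that list and bar width is the called width. In each of the 5 factor lists the tallest peak sits at the start of Vil1.

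The start of Vil1 held the highest-scoring peak of both windows in each of the 5 factor lists. CDX2 was called there by both wild-type libraries and in Hnf4a knockout, and HNF4A was called both with and without Cdx2. In CDX2 library 1 the peak spanned 74454882 to 74456367 and scored 431, rank 66 of 12121 in its list. In library 2 it was narrower, from 74455202 to 74455557, with a score of 160 and rank 127 of 7441. In Hnf4a knockout 2 peaks lay there, and the stronger, at 74455117 to 74455637, scored 753 and was the highest-scoring peak of all 5768 in that list. The weaker neighbour at 74455649 to 74456228 scored 71.7. The HNF4A peak scored 990 in wild type (74455003 to 74456249, rank 147 of 22376) and 787 in Cdx2 knockout (74455109 to 74456517, rank 44 of 9676). Scores move with depth, which is unknown here, so values of different lists describe each list and do not give a change between genotypes. The driver of the deletions is also unknown. Whether the knockouts carry a transgene with Vil1 promoter sequence, whose reads would map here, was not tested.

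The promoter is shown because all 5 factor lists placed a peak within 1 kb of the approximate start of Vil1. The 250 bases before the RefSeq start (build GRCm38.p6, plus strand, 5′ to 3′) are given with the only motif match found in capitals.
Vil1 promoter: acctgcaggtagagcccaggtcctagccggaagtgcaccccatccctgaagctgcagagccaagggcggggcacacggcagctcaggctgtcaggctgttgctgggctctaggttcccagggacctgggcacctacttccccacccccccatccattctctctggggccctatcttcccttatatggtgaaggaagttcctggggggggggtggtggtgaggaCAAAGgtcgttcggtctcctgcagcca
Its GC content was 62.8%. CAAAG, the core of the HNF4A half-site, matched 1 time over both strands, and 48.6% of 32851 promoter stretches of the same length in the table held it. TTTAT, the core of the CDX2 motif, had 0 matches, against 37.3% of stretches with at least 1. The longer forms TTTATNG (9.81% of stretches) and CAAAGTCCA (0.384%) had 0 matches as well. The short and long forms overlap each other. The stretch was not placed in mm9, and it covers at most part of the wider called peaks. By the approximate start at 74.456 Mb, it would lie beyond the library 2 CDX2 peak, which ends at 74455557. It would also lie beyond the strongest CDX2 peak in Hnf4a knockout, which ends at 74455637. The motif counts therefore do not describe the sequence under those CDX2 peaks.

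Inside the first 5 kb of the Vil1 span the factors met at further places. CDX2 was called at 74459961 to 74460960 in library 1 (score 127) and at 74460243 to 74460571 in library 2 (97.6). The Hnf4a knockout list held a peak at 74460178 to 74460646 (228, rank 23 in its list) and a weak one at 74460872 to 74461221 (54.0). This intragenic site and the one at the start were the 2 Vil1 sites called by both wild-type CDX2 libraries, and CDX2 was called at 2 of 2 in Hnf4a knockout. Across the genome 39.2% of the 1584 sites of both libraries were called again in that list. HNF4A was called at both in wild type, against 43.2% of all such sites. In Cdx2 knockout, HNF4A was called at the start and not at the intragenic site, where its wild-type score was 142.

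Another intragenic site was seen by 4 of the 5 factor lists. CDX2 was called there in library 1 (74457651 to 74459112, score 161) and in Hnf4a knockout (74458402 to 74458908, 102), and not in library 2. HNF4A was called in wild type (74458399 to 74458888, 279) and in Cdx2 knockout (74458386 to 74459046, 243). The Hnf4a knockout list also held a CDX2 peak before the gene, at 74452702 to 74453401 (101), where neither wild-type CDX2 library had one and where HNF4A had a wild-type peak (74452858 to 74453259, 96.0). That HNF4A peak was not called in Cdx2 knockout. It was the only Vil1 region with a CDX2 peak in Hnf4a knockout and none in wild type. Of the 6 Vil1 CDX2 peaks in Hnf4a knockout, 5 overlapped a place where HNF4A was called in wild type, against 8.84% of that whole list. The 2 at the start of Vil1 overlapped 1 and the same HNF4A peak. Those 6 peaks were 350 to 700 bp wide, against a list median of 248 bp, and the share was not matched for width or score.

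The remaining CDX2 peaks of the Vil1 window came from library 1 alone. They lay at 74443685 to 74445123 (68.7), 74482089 to 74483134 (152), 74484471 to 74485290 (55.5) and 74499061 to 74499541 (59.3), and none was called in library 2 or in Hnf4a knockout. In all, 2 of the 7 library 1 peaks were shared with library 2, against 13.1% of that whole list. Both library 2 peaks were shared with library 1, against 21.4% of its list. Of the 7 library 1 peaks 3 were called again in Hnf4a knockout (8.6% of the whole list), as were 2 of 2 for library 2 (11.6%). With a score of 100 or more, 3 of 4 library 1 peaks were called again, against 23.6% of such peaks. For library 2 it was 1 of 1, against 63.4%.

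HNF4A had 15 wild-type peaks along the Vil1 window. Beyond the start and the intragenic site with a score of 279, the strongest lay at the far end of the gene, at 74481215 to 74481679 (381), 74479792 to 74480287 (249) and 74482295 to 74482703 (224). In Cdx2 knockout the first of these was met by peaks at 74481124 to 74481304 (52.1) and 74481321 to 74481584 (277). The others were met by peaks at 74479956 to 74480264 (114) and 74482271 to 74482501 (85.1). Of the 15 peaks, 9 were called again in Cdx2 knockout, against 30.1% of all 22376 wild-type HNF4A peaks. The kept peaks included every Vil1 peak that scored 200 or more (5 of 5, against 77.5% of such peaks in the whole list). With a score of 100 or more it was 7 of 9, against 56.5%. Since high-scoring peaks were kept more often everywhere, the share of all 15 has to be read with their scores.

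The 6 Vil1 HNF4A peaks not called in Cdx2 knockout were all below the 200 mark. They lay at 74451092 to 74451511 (107), 74452858 to 74453259 (96.0), 74460060 to 74460581 (142), 74478886 to 74479245 (85.9), 74482846 to 74483124 (72.5) and 74499347 to 74499633 (66.2). The weak peaks at 74456937 to 74457124 (62.1) and 74459447 to 74459639 (87.4), close to the start, were kept with scores of 50.9 and 65.2. Before the gene, a peak at 74439285 to 74439685 scored 116 in wild type and 212 in Cdx2 knockout, and one at 74443893 to 74444365 scored 106 and 50.8. The Cdx2 knockout list had 12 Vil1 peaks, of which 2 had no wild-type counterpart, at 74453480 to 74453657 (63.5) and 74481874 to 74482050 (56.5). In the whole knockout list 70.4% of peaks overlapped a wild-type peak.

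CDX2 and HNF4A lay together at Vil1. Of the 7 CDX2 peaks of library 1, 6 overlapped a wild-type HNF4A peak, against 26.4% of the whole list. Both library 2 peaks did, against 11.8%. The library 1 peaks here were 481 to 1486 bp wide, against a median of 570 bp in that list. Wider peaks can overlap more easily, and the whole-list shares were not matched for width or score. Seen from HNF4A, 7 of 15 peaks overlapped CDX2 library 1 (15.5% of the whole list) and 2 of 15 overlapped library 2 (3.98%). The peaks of one window share its open chromatin and are not independent of each other.

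**Figure D2:**
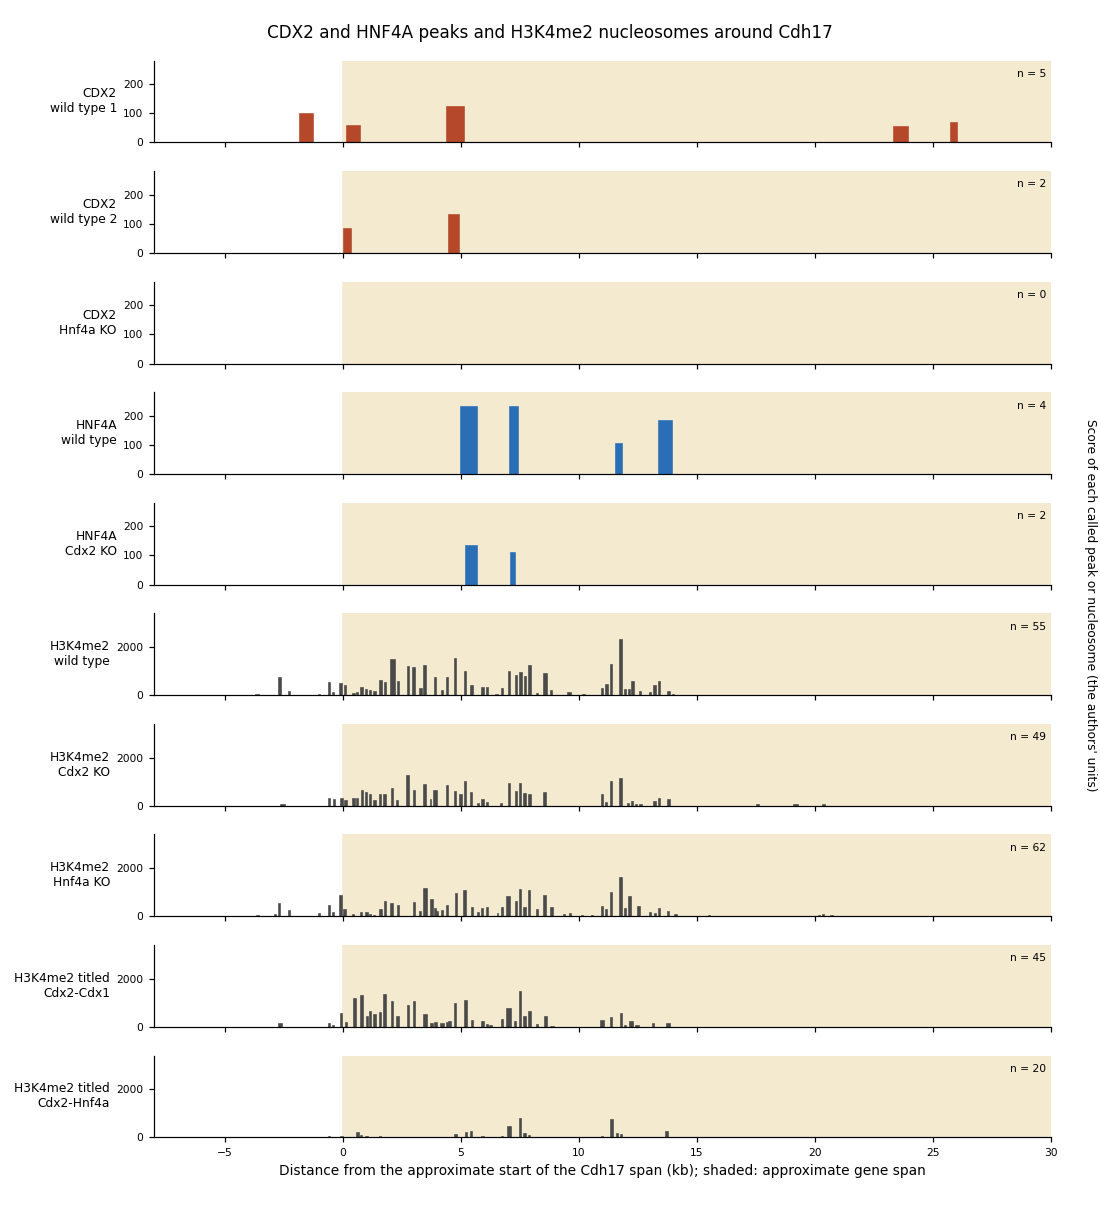
The same lists in the part of the Cdh17 window that holds nearly all members, with distance from the approximate start of the gene span in kb on the x axis and the authors' score as bar height. The panel of CDX2 in Hnf4a knockout is empty, and the last panel (double knockout titled Cdx2-Hnf4a) holds 20 nucleosomes against 55 in wild type.

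At Cdh17 both factors were present in wild type with moderate scores. CDX2 was called by both wild-type libraries at the lower end of the span, at 11685132 to 11685720 in library 1 (58.9) and 11685016 to 11685359 in library 2 (85.9). Both libraries also called an intragenic site, at 11689383 to 11690147 (125) and 11689480 to 11689917 (133, rank 217 of 7441). HNF4A was not called at the lower end of the span in either genotype, unlike at the start of Vil1. At the intragenic site the library 1 peak overlapped a wild-type HNF4A peak at 11689991 to 11690701 (233), and the narrower library 2 peak did not.

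No CDX2 peak was called anywhere in the Cdh17 window in Hnf4a knockout. This was 0 of 5 library 1 peaks and 0 of 3 library 2 peaks, against 8.6% and 11.6% of the whole lists. It was 0 of the 2 sites of both libraries, against 39.2% of all such sites. With a score of 100 or more it was 0 of 2 in library 1, against 23.6% of such peaks, and 0 of 1 in library 2, against 63.4%. The counts are small, and not called does not mean unbound, since no factor list reached below a score of 50. At Vil1 CDX2 was called at 2 of 2 such sites in the same library.

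The other Cdh17 CDX2 peaks were each seen by 1 library. Library 1 had peaks before the span at 11683161 to 11683745 (101) and deep in the gene at 11708337 to 11708945 (54.5) and 11710752 to 11711043 (70.4). Library 2 had one at 11742648 to 11742932 (56.1). Around these last 3 peaks all 5 lists were empty of H3K4me2 nucleosomes within 1 kb. The 6 Cdh17 factor regions nearer the lower end of the span had at least 1 in every list.

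HNF4A had 4 wild-type peaks at Cdh17, all in the lower part of the span. The stronger pair, at 11689991 to 11690701 (233) and 11692039 to 11692419 (234), was called again in Cdx2 knockout with scores of 134 and 111. The weaker pair, at 11696548 to 11696835 (108) and 11698350 to 11698951 (184), was not called. The kept pair included the only Cdh17 HNF4A peak that touched a CDX2 peak, and no new HNF4A peak was called in Cdx2 knockout. In all 2 of 4 were called again, against 30.1% of the whole list, or 56.5% of its peaks at a score of 100 or more, which all 4 reached. At 200 or more it was 2 of 2, against 77.5%.

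**Figure D3:**
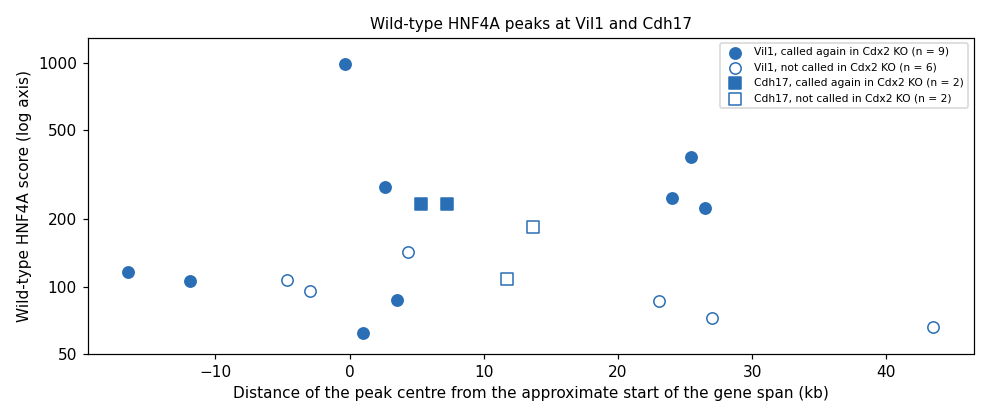
Wild-type HNF4A peaks at Vil1 (circles) and Cdh17 (squares) by distance from the approximate start of the gene span (kb) and by wild-type score on a log axis. Filled symbols were called again in Cdx2 knockout. All 7 peaks at or above a score of 200 are filled, and the open ones lie between 66.2 and 184.

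H3K4me2 nucleosomes lay densest around the start and first part of Vil1 and around the lower part of the Cdh17 span. Joined over all 5 lists where centres lay 1 kb or less apart, the longest run reached from 74451091 to 74462711 at Vil1, with 39 wild-type nucleosomes, and from 11683951 to 11699151 at Cdh17, with 52. In the Vil1 window 76 nucleosomes were called in wild type, 69 in Cdx2 knockout, 80 in Hnf4a knockout, 71 in the double knockout titled Cdx2-Cdx1 and 73 in that titled Cdx2-Hnf4a. The groups lay close together. Scaled by list length, the ratios to wild type were 0.868 (exact 95% interval 0.617 to 1.22), 1.03 (0.745 to 1.43), 0.813 (0.58 to 1.14) and 0.854 (0.611 to 1.19), and every interval included 1. The intervals cover counting error only. They treat each nucleosome as a separate draw, though nucleosomes of 1 window are not replicates. Over 4349 windows of 70 kb with 20 or more wild-type nucleosomes, the median ratios were 0.984, 0.981, 0.931 and 0.922. Of those windows 1.49%, 0.115%, 1.93% and 6.32% had a ratio of 0.5 or less, and Vil1 was not among them in any knockout. Each knockout had 1 library, so its spread between animals is unknown and no p-value was computed.

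In the Cdh17 window wild type had 57 nucleosomes, Cdx2 knockout 51, Hnf4a knockout 64 and the double knockout titled Cdx2-Cdx1 46. The double knockout titled Cdx2-Hnf4a stood far below the others, with 21. Its scaled ratio to wild type was 0.328 (0.189 to 0.549), against a median of 0.948 over 4593 windows of 110 kb, of which 4.75% had a ratio of 0.5 or less. The other ratios were 0.855 (0.574 to 1.27) in Cdx2 knockout, 1.10 (0.758 to 1.60) in Hnf4a knockout and 0.702 (0.466 to 1.05) in the library titled Cdx2-Cdx1, with intervals that included 1. Ratios of 0.5 or less were found in 1.33%, 0.174% and 1.63% of windows in those knockouts. In the library with the low Cdh17 count the Vil1 ratio was 0.854 (0.611 to 1.19). The 2 loci were not tested against each other. The whole list of that library was longer than that of wild type (275915 against 245431 nucleosomes), with a median score of 232 against 231 as deposited. One of its antibody lot numbers differs in the last digit from the label of the other H3K4me2 libraries. With 1 library, genotype, antibody lot and depth cannot be told apart.

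**Figure D4:**
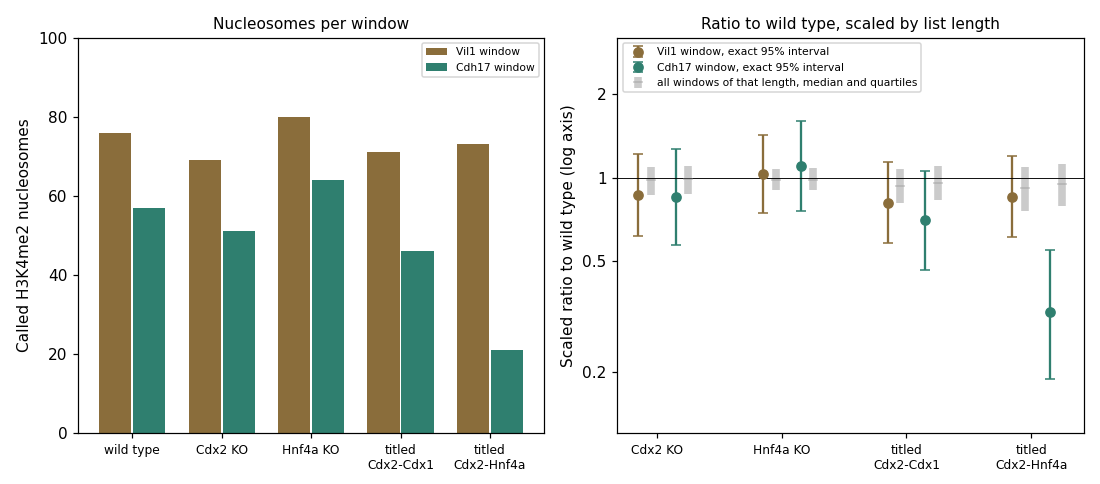
Left, called H3K4me2 nucleosomes per window in each of the 5 lists. Right, ratios to wild type scaled by list length on a log axis, with exact 95% intervals for counting error, beside the median and quartiles of all windows of the same length (grey). The Cdh17 ratio of 0.328 in the library titled Cdx2-Hnf4a is the only one whose interval excludes 1.

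Bins of 10 kb recount the same nucleosomes, so they show where the contrast lay and add no separate support. At Cdh17 the tested bins held nearly all nucleosomes of the window. A bin counted as lower at a scaled ratio of 0.5 or less, and it needed 5 or more wild-type nucleosomes. At Vil1, 0 of 5 such bins were lower in any knockout. At Cdh17, 2 of 2 were lower in the library titled Cdx2-Hnf4a, against 12.4% of 19168 bins, and 0 of 2 in the other knockouts, against 5.79% in Cdx2 knockout, 2.81% in Hnf4a knockout and 7.02% in the library titled Cdx2-Cdx1. Ratios of 2 or more were reached by 0 bins of either locus, against 0.522%, 0.308%, 0.892% and 1.43% of all bins. The bin at 11680001 to 11690000 held 26 nucleosomes in wild type, 23 in Cdx2 knockout, 27 in Hnf4a knockout, 23 in the first double knockout (titled Cdx2-Cdx1) and 7 in that titled Cdx2-Hnf4a. The bin at 11690001 to 11700000 held 29, 23, 31, 22 and 13 in the same order. Of the 11 Cdh17 bins, 7 were empty in all 5 lists.

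The positions were compared as well. A wild-type nucleosome was called again where a knockout nucleosome had its centre within 75 bp. At Vil1 the shares called again were 80.3% (61 of 76, 95% interval 69.5 to 88.5) in Cdx2 knockout, 81.6% in Hnf4a knockout, 76.3% in the library titled Cdx2-Cdx1 and 80.3% in that titled Cdx2-Hnf4a. Over the whole lists they were 77.9%, 77.1%, 74.2% and 71.3%. At Cdh17 they were 71.9% (41 of 57, 58.5 to 83.0) in Cdx2 knockout, 91.2% (52 of 57, 80.7 to 97.1) in Hnf4a knockout, 71.9% (58.5 to 83.0) in the library titled Cdx2-Cdx1 and 31.6% (18 of 57, 19.9 to 45.2) in that titled Cdx2-Hnf4a. The Cdh17 share in Hnf4a knockout lay above its whole-list share and the last lay far below. With only 21 nucleosomes called in that library at Cdh17, a low last share follows largely from the count. The whole-list shares were not matched for score or density. The median wild-type score was 354.5 at Cdh17 and 502 at Vil1, against 231 in the whole list as deposited. At Cdh17, 9 of 57 wild-type nucleosomes were called again in Hnf4a knockout and in none of the 3 lists lacking Cdx2, and at Vil1 2 of 76 were, against 5.34% of all 245431 wild-type nucleosomes.

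The first 2 kb of the Vil1 span held 8 nucleosomes in wild type, 9 in Cdx2 knockout and 7 in Hnf4a knockout. There were 9 in the library titled Cdx2-Cdx1 and 8 in that titled Cdx2-Hnf4a. Of the 8 in wild type, 8, 7, 8 and 8 were called again, and the one not called in Hnf4a knockout lay at 74457821 to 74457921 (2700 in wild type). The highest-scoring wild-type nucleosome of the window, at 74455171 to 74455261, was at the score ceiling of 3250 in all 5 lists. Others of high score lay at 74457581 to 74457681 (2783 in wild type) and, inside the HNF4A peak before the gene, at 74444211 to 74444311 (2845), and both were called in all 4 knockouts. Between 74452000 and 74454000 wild type, Cdx2 knockout and Hnf4a knockout had 4, 5 and 4 nucleosomes, and the double knockouts had 2 (titled Cdx2-Cdx1) and 0 (titled Cdx2-Hnf4a). This is the stretch where CDX2 was called in Hnf4a knockout and HNF4A in wild type. Both factors were also called between 74460000 and 74462000, where HNF4A was not called in Cdx2 knockout. In the order of lists used above, the counts there were 8, 7, 8, 7 and 8. They were 7, 5, 7, 7 and 6 from 74454000 to 74456000 and 7, 6, 9, 7 and 9 from 74458000 to 74460000. From 74450000 to 74452000 they were 1, 1, 2, 0 and 0. Between 74462000 and 74464000 the counts were 4 in wild type, 3 in Hnf4a knockout, 1 in Cdx2 knockout and 0 in both double knockouts. These 2 kb segments were chosen after the data were seen and have no test.

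At Cdh17 the low count in the library titled Cdx2-Hnf4a was uneven along the gene. From 11687000 to 11689000, between the CDX2 site at the lower end and the intragenic one, wild type had 7 nucleosomes, Cdx2 knockout 7, Hnf4a knockout 8, the library titled Cdx2-Cdx1 7 and that titled Cdx2-Hnf4a 0. One of these, at 11687001 to 11687201, was the third highest of the window in wild type (1486). Before it, the segment from 11683000 to 11685000 had 4, 3, 4, 3 and 2 in the same order, and the one over the CDX2 site at the lower end, from 11685000 to 11687000, had 9, 9, 8, 8 and 4. The segment from 11689000 to 11691000 had 6, 7, 7, 7 and 4, and the one from 11691000 to 11693000 had 8, 7, 8, 8 and 5, and both hold HNF4A peaks called again in Cdx2 knockout. The segments over the HNF4A peaks not called there differed from each other. The counts were 6, 4, 7, 4 and 4 from 11695000 to 11697000 and 8, 7, 6, 4 and 1 from 11697000 to 11699000. The first of them had the same wild-type and Cdx2-Hnf4a counts (6 and 4) as the segment from 11689000 to 11691000. From 11693000 to 11695000, before both, the counts were 4, 1, 5, 3 and 0. The highest-scoring wild-type nucleosome of the Cdh17 window, at 11696731 to 11696831 (2332), was called in all knockouts, with scores of 1169, 1632, 567 and 141 in their own lists. The next, at 11689731 to 11689821 inside the intragenic CDX2 site (1536), was also called in all of them.

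Around single factor regions the counts followed the segments. A factor region was a run of overlapping peaks from any of the 5 factor lists, and nucleosomes were counted within 1 kb of its centre. In the same order the region at the Vil1 start had 8, 7, 8, 8 and 8 nucleosomes. Among 11 Vil1 regions with 3 or more in wild type, 1, 1, 3 and 2 had a scaled ratio of 0.5 or less in the 4 knockouts, against 13.4%, 4.7%, 13.9% and 25.3% of 15800 such regions. At Cdh17 it was 1, 0, 2 and 4 of 6. No region at either gene reached 2 or more, against 0.146%, 0.209%, 0.342% and 0.348%. The region at the lower end of the Cdh17 span had 10, 10, 9, 9 and 5, and the intragenic CDX2 and HNF4A region had 6, 7, 7, 7 and 4. The region before the span, with a CDX2 peak of library 1 only, had 3, 1, 3, 1 and 1. Neighbouring regions share nucleosomes, so these counts are not independent.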

How the data were processed

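ChIP-seq lists of 10 libraries were used. Input DNA was not analysed here. The authors deposited 1 list per library. The factor lists give a score per peak, the HNF4A peak names carry the word MACS, and the files do not say what that score stands for. The nucleosome lists give, per the file headers, a score of 10 times the −log10 of a p-value. The build is mm9, per the submitters' processing notes. Aligner, caller version and control were not given in the sources used here. Depth is unknown, and scores and list lengths move with it. In the Hnf4a knockout H3K4me2 list 48.4% of nucleosomes scored below 52, against 1.19 to 3.76% in the others.

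Groups came from the titles. Peak starts were counted from 1, and nucleosome positions are printed as in the files. Overlap meant 1 bp or more. Ratios were scaled by list length at a score of 52 or more. Intervals are exact binomial (Clopper-Pearson for shares) with Python 3.11.15 and scipy 1.17.1. Procedures were tested on simulated data. No label says whether the wild-type CDX2 libraries came from separate animals. Every factor peak is given with its score, as are the 3 highest wild-type nucleosomes per window, bins past the fold and, after their values were seen, some segments. Members and lists were chosen with earlier results of these data known. Lists of other brush border and adhesion genes were not used here, as no mm9 annotation was used. The RefSeq promoter table (GRCm38.p6) had an entry for Vil1.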

Additional observations from a re-analysis of the deposited data

How the results depend on the processing

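Of 106 values recomputed under other settings for 30 results, 100 stayed within 1.5 times the count or inside the 95% interval. This standard is loose, because the intervals were wide and the count rule ignored how many peaks were compared. For CDX2 regions kept at Vil1, 3 of 7 and 3 of 4 (score 100 or more) counted as unchanged. Among the 100 values the Hnf4a knockout ratios lay on either side of 1. The Cdh17 ratio of 1.10 was 0.918 with lists as deposited and 0.976 with summed scores. The Vil1 ratio of 1.03 was 0.998 with summed scores. At Vil1 the kept HNF4A peaks were 5 of 9 in place of 9 of 15 when both lists needed a score of 100. The wild-type CDX2 regions numbered 7 at Vil1 and 6 at Cdh17. At a score of 100 they were 4 and 2. Without library 1 or library 2 they ranged from 2 to 7 at Vil1 and from 3 to 5 at Cdh17, the low values being those without library 1. CDX2 regions kept in Hnf4a knockout were 3 of 7 at Vil1 (2 to 3 when 1 library was left out) and 0 at Cdh17 under every setting tried. The Cdh17 ratio of 0.328 in the library titled Cdx2-Hnf4a was 0.129 with summed scores in place of counts, and between 0.217 and 0.368 under the other settings. The cause was not tested. No paired analysis was possible because each knockout has 1 library and the groups share fewer than 2 replicate numbers. Unknown depth limits every statement that a peak was not called.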

Other observations

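Some weak nucleosomes were called in knockouts where wild type had none. Within Vil1, from 74470001 to 74480000, the Hnf4a knockout list had 4 nucleosomes, the library titled Cdx2-Cdx1 had 1 and the other lists had 0. In Cdh17, from 11700001 to 11710000, Cdx2 knockout had 3 and Hnf4a knockout had 4, against 0 in wild type and in both double knockouts. Those in the Cdh17 bin scored at most 84.6. Across the genome, the share of bins empty in wild type that held such calls in a knockout was not computed. Whether the Vil1 or the Cdh17 bin is unusual in this respect was therefore not tested. Below the score of 52 the Hnf4a knockout list held a further 69 nucleosomes in the Vil1 window and 39 in the Cdh17 window, against 1 and 1 in wild type. That list reaches to lower scores than the others.

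At Vil1 more nucleosomes were at the score ceiling in the lists lacking Cdx2. There were 6 in Cdx2 knockout, 3 in the library titled Cdx2-Cdx1 and 5 in that titled Cdx2-Hnf4a, against 1 in wild type and 1 in Hnf4a knockout. Over whole lists the numbers at the ceiling were 4345, 3238, 3469, 3136 and 2273 in the same order. Whether a transgene with Vil1 promoter sequence in the knockouts adds reads at this locus was not tested. At Cdh17 no list had a nucleosome at the ceiling, and the highest was 2332 in wild type.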
